A study of Mus musculus with 15 samples.

Results

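Messenger RNA in the livers of wild-type (WT) mice given an alcohol diet together with UA (Alc UA, 5 libraries) was compared with that in the livers of WT mice given a control diet (Ctrl, 5 libraries). The comparison shows which gene families lie away from the control liver, and which lie at its level, when the alcohol diet and UA are given together. Of 18510 rows in the table, 10735 had at least 1 FPKM in at least 5 of the 10 libraries and were tested. FPKM is a fragment count divided by transcript length and by the fragments mapped in that library. A further group of 5 liver libraries from WT mice on the alcohol diet alone (Alc) is used where the question is whether Alc UA differs from Alc, and it enters the estimate of the spread. The labels do not expand UA. The labels number the libraries of a group as replicates but do not say that each came from a separate animal, so the p-values measure the spread between these libraries, which may be technical. No source used here gives the strain, sex or age of the animals, the composition and length of the diets, the dose of UA or the hour at which livers were collected.

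Hepatocytes remove ethanol mainly by oxidising it to acetaldehyde and then to acetate, with cytosolic alcohol dehydrogenases, the microsomal cytochrome P450 CYP2E1 and mitochondrial aldehyde dehydrogenase as the main enzymes. The dehydrogenase steps reduce NAD+ to NADH, and the liver's fatty acid, glucose and one-carbon pathways draw on the same cofactor. Many of these pathways also follow the hour of day, because hepatocytes carry a molecular clock in which BMAL1 (encoded by Arntl) and CLOCK switch on their own repressors, the period and cryptochrome proteins. Whole liver also holds sinusoidal endothelial cells, Kupffer cells, stellate cells, bile duct cells and blood, all of which add RNA to a library.

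The libraries were those of liver, with Alb, the gene of serum albumin, between 13754 and 45745 and Ttr between 2704 and 8333 scaled FPKM over all 15. Deposited FPKM values summed to between 551153 and 668832 per library. After scaling by the median of ratios, with factors from 0.864 to 1.22, tested genes had a median log2 fold change of -0.0046. The first principal component held 44.5% of the variance and set Ctrl (scores -40.7 to -12.0) apart from Alc UA (6.25 to 23.8). Ctrl 5 lay nearest to the Alc UA libraries on it, and Ctrl 1 lay farthest from the other Ctrl libraries on the second component (23.6). Fits without both are therefore given where they move a result. Levels below are scaled FPKM, given per library in the order 1 to 5 or as mean ± SD (n = 5). Log2 fold changes are Alc UA minus Ctrl on log2(FPKM + 1) ± SE, with Benjamini-Hochberg adjusted p-values from limma over all tested genes, and the added 1 understates the change of weakly expressed genes.

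At an adjusted p under 0.05, 2403 of the 10735 tested genes (22.4%) were higher in Alc UA than in Ctrl and 2331 (21.7%) were lower. The 5 Alc UA libraries lay wholly above the 5 Ctrl libraries for 1290 genes (12% of those tested), and wholly below them for 1177 genes (11%). Most differences were small, with 173 genes higher and 197 lower by more than 1 on the log2 scale. A gene was taken to lie at the control level when it was not called, reached a mean of 5 FPKM and had a 95% interval of its log2 fold change inside -0.5 to 0.5, that is, within 1.41-fold. By this measure 2483 genes (23.1%) lay at the control level, and the remaining 3518 (32.8%) were undetermined. Of the called genes, 810 also had an interval inside -0.5 to 0.5, so a call does not place a gene outside these bounds. Of the undetermined genes, 2517 had a mean under 5 FPKM, whatever their interval. Against Alc, 1 gene of 10735 was called (0.00932%), the major urinary protein gene Mup5, and 744 had an unadjusted p under 0.05. Without scaling the median shifted to -0.16 and 24.8% of the called genes were higher, against 50.8% after scaling and 34% when the libraries were given the same FPKM sum, so directions below are relative to the median gene.

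**Figure D1:**
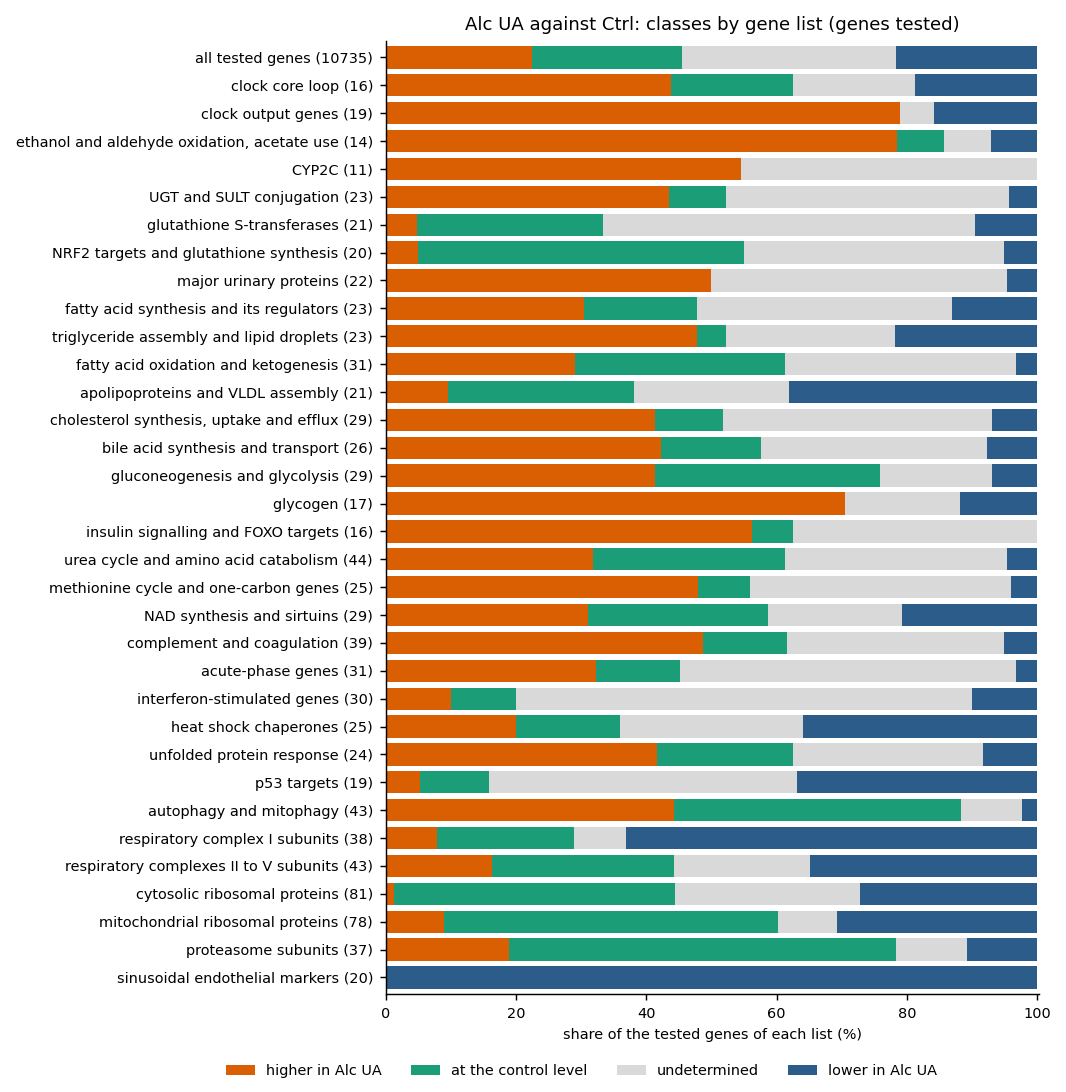
Share of the tested genes of each list (horizontal axis, %) that were higher, at the control level, undetermined or lower in Alc UA against Ctrl (5 libraries each), with the number of tested genes in parentheses and all tested genes in the top bar. The sinusoidal endothelial bar is wholly lower, the clock output bar is mostly higher, and the proteasome, mitochondrial ribosomal and NRF2 bars hold the widest shares at the control level among those drawn.

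Circadian genes were among those farthest from the control level. In the core loop 7 of 16 tested genes were higher (43.8%, against 22.4% of all tested genes), 3 were lower, 3 lay at the control level and 3 were undetermined, and 2 listed genes were too weak to test. All 3 period genes, which repress the loop, rose. Per3 stood at 0.482, 1.11, 0.79, 0.545 and 0.762 in Ctrl and at 11.9, 6.22, 9.29, 9.35 and 9.63 in Alc UA (2.55 ± 0.17, adjusted p = 3.6e-07). Per2 stood at 1.69, 2.69, 1.97, 1.86 and 1.34 in Ctrl and at 8.22, 10.9, 7.27, 12.7 and 8.94 in Alc UA (1.86 ± 0.13, adjusted p = 5.2e-07). All Alc UA libraries exceeded all Ctrl libraries for both, and Per1, Cry2, Nr1d2 and the repressor Ciart were higher too. Both tested activators fell. Arntl held 8.98, 8.15, 10.6, 8.47 and 8.54 in Ctrl and 0.719, 1.15, 0.638, 0.918 and 1.43 in Alc UA (-2.35 ± 0.11, adjusted p = 1.1e-08), with no overlap between the groups. Clock, its partner, fell by 0.52 on the log2 scale (4.54 ± 0.47 to 2.87 ± 0.403), and the cryptochrome gene Cry1 fell by 0.91, opposite to Cry2. At the control level lay Csnk1d (0.21, 95% interval 0.019 to 0.40), whose product phosphorylates period proteins, together with Rora. Nr1d1, which encodes the repressor REV-ERB alpha, was undetermined. It held 7.17, 3.47, 11.2, 6.26 and 53.9 in Ctrl, where library 5 stood apart, and 31.2, 14.4, 31.7, 29.4 and 23.9 in Alc UA (1.22, 95% interval 0.10 to 2.35, adjusted p = 0.072). No longer inside the bounds of the control level under another setting were Csnk1d without Ctrl 3, with library weights; Rora without Ctrl 3 or 5, with library weights. The undetermined gene called under another setting was Nr1d1 without Ctrl 5 or both Ctrl 1 and Ctrl 5, with library weights (adjusted p 0.0012 to 0.0052).

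Among genes driven by the clock, 15 of 19 tested genes were higher and 3 lower (Nfil3, Tars and Leo1), with a median log2 fold change of 1.53. The largest rise of any named gene was that of Dbp, a transcription factor under direct control of the BMAL1 and CLOCK pair. Its levels were 2.52, 3.69, 3.69, 3.52 and 7.04 in Ctrl and 82.7, 63.7, 95.2, 78.5 and 67 in Alc UA (3.99 ± 0.21, adjusted p = 1.7e-08), so that the lowest Alc UA library exceeded the highest Ctrl library by a wide margin. Usp2, a ubiquitin protease, went from 1.82 ± 0.671 to 16.7 ± 3.79 (2.66 ± 0.18, adjusted p = 3.6e-07), and Tef, a relative of Dbp, from 16.7 ± 3.55 to 61.1 ± 7.92 (1.83 ± 0.15, adjusted p = 2.9e-06). Rgs16, a regulator of G protein signalling, and Upp2, a uridine phosphorylase, rose by 3.88 and 2.91 on the log2 scale. Nfil3, which competes with Dbp for the same DNA sites, was lower (15.9, 24.9, 22.5, 21.4 and 31.1 in Ctrl, 13.2, 12.3, 11.5, 9.56 and 17.9 in Alc UA, -0.79 ± 0.19, adjusted p = 0.0039), and the 2 groups overlapped. Against Alc, none of these genes was called. Alc minus Ctrl is not a separate line of evidence, since it uses the same Ctrl libraries. The difference between Alc UA and Alc was -0.10, 95% interval -0.53 to 0.34 for Dbp and -0.19, 95% interval -0.43 to 0.048 for Arntl. Since the hour of collection is not given, a difference in the clock and a difference in collection time between the groups cannot be told apart.

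The promoters of the clock genes are shown because the groups differed strongly in these genes, and because the DNA letters read by the clock factors are known. RefSeq promoters (GRCm38.p6, 250 bases before the gene start) were found for 28 of the 35 tested core and output genes. The E-box bound by BMAL1 and CLOCK (CACGTG) was present in 7 of the 28 (25%), Per1, Ciart, Cry1, Tef, Tspan4, Coq10b and Lonrf3, and in 6.86% of all 27025 gene symbols (any of their promoters) and 10.1% of the 8597 tested genes with a promoter. The D-box bound by Dbp, Tef and Nfil3 (TTATGTAA or TTACGTAA, both strands) was present in Per3 and Coq10b and in 1.1% of all symbols. The element bound by ROR and REV-ERB factors (TAGGTCA) was present in Nfil3 and Leo1, both lower, and in 2.55% of all symbols. A match describes the letters of the window, and the E-box shares the core ACGT with the second D-box form, though neither holds the other. Matches are in capitals below, 5' to 3' on the gene's strand.
Per3 (chr4:151044666-151044915, minus strand, 2 D-boxes, 150 and 197 bases before the start): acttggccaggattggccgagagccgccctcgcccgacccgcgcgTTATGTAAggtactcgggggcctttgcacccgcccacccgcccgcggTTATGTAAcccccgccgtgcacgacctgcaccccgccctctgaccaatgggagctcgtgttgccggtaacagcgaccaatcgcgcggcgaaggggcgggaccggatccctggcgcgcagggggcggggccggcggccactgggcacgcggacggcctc
Ciart (chr3:95882229-95882478, minus strand, 3 E-boxes, the nearest 38 bases before the start): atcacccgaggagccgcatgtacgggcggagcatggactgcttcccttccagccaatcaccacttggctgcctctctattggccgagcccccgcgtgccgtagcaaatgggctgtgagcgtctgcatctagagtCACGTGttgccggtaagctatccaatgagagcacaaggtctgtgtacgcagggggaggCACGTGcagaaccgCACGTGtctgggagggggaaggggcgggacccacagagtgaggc
Nfil3 (chr13:52981040-52981289, minus strand, 1 ROR element on the other strand, 5 bases before the start): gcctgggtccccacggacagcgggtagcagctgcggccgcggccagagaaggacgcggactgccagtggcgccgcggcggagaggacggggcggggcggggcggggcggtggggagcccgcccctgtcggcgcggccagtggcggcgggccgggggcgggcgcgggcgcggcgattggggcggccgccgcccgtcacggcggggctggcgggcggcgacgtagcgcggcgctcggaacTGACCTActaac

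**Figure D2:**
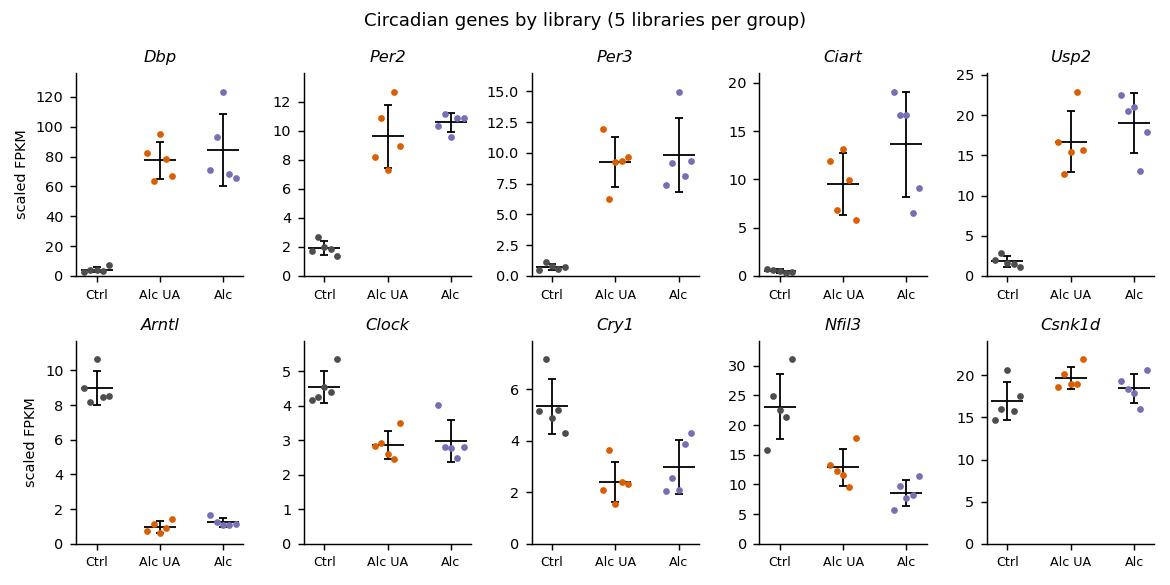
Scaled FPKM (vertical axes, linear, from 0) of 10 circadian genes in each of 5 Ctrl, 5 Alc UA and 5 Alc libraries, with points for libraries and bars for mean ± SD. Dbp, Per2, Per3, Ciart and Usp2 lie higher in every Alc UA library than in any Ctrl library, Arntl, Clock and Cry1 lie lower, the groups overlap for Nfil3, and Csnk1d lies at the control level.

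Enzymes of ethanol and aldehyde oxidation rose together. Of 14 tested genes, 11 were higher (78.6%), 1 was lower (Adh7), 1 lay at the control level and 1 was undetermined, with a median of 0.53. Cyp2e1, the P450 that oxidises ethanol in the microsomes, held 3265, 4099, 2969, 2366 and 5433 in Ctrl and 10968, 9967, 7396, 8270.4 and 10459.5 in Alc UA (1.42 ± 0.21, adjusted p = 0.00016). Aldh2, which turns acetaldehyde into acetate in mitochondria, held 496, 606, 564, 436 and 787 in Ctrl and 977, 865, 913, 914 and 1116 in Alc UA (0.75 ± 0.14, adjusted p = 0.00083). The lowest Alc UA library exceeded the highest Ctrl library for both. Acss2, which activates acetate to acetyl-CoA, rose from 17.4 ± 4.31 to 33.8 ± 4.96 (0.94 ± 0.14, adjusted p = 0.00014). Adh1, the main alcohol dehydrogenase of the liver, was higher by less, with overlap between the groups (916 ± 189.8 to 1302 ± 221, 0.51 ± 0.18, adjusted p = 0.031). Only 4 genes of the list were higher on the unscaled values and 6 with equal FPKM sums. Calls that ended under another setting were Adh7 without Ctrl 2 or 4 or Alc UA 1, 2 or 5, with no filter, in a fit of the 10 libraries alone (adjusted p 0.055 to 0.092); Adh1 without Ctrl 1 or 3 or Alc UA 4 or 5 or both Ctrl 1 and Ctrl 5, on unscaled values, after quantile normalization, with equal FPKM sums, with no filter, with library weights (adjusted p 0.059 to 0.29).

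Drug-metabolising P450 enzymes were higher in a subset of families. In the CYP2C family 6 of 11 tested genes were higher and none was lower, with a median of 1.03. Reads of near-identical members of these families may be divided between them, which the FPKM values cannot reveal. Cyp2a5, a coumarin hydroxylase, held 216, 86.3, 41.4, 18 and 56.1 in Ctrl and 845, 478, 455, 572 and 397 in Alc UA (3.11 ± 0.46, adjusted p = 0.00017), and its highest Ctrl value was in library 1. Cyp3a11, the main CYP3A enzyme of mouse liver, held 852, 828, 587, 315 and 775 in Ctrl and 1647, 1199, 1293, 1054 and 1742 in Alc UA (1.11 ± 0.24, adjusted p = 0.0023). Neither gene overlapped between the groups, while Cyp3a25, another member of the CYP3A family, lay at the control level (-0.015, 95% interval -0.29 to 0.26). Cyp2b9 was near 0 in 4 Ctrl libraries and variable in Alc UA (3.13, 13.7, 1.14, 47.4 and 18.4), and it was called higher (2.76 ± 0.74, adjusted p = 0.0075). The Alc libraries held 90.0, 88.3, 58.3, 183 and 266, all above the Alc UA libraries, and the difference of Alc UA from Alc (-3.51, 95% interval -5.08 to -1.94) did not pass the adjusted threshold (adjusted p = 0.24). Por, the reductase that hands electrons to all microsomal P450 enzymes, rose from 117 ± 27.8 to 400.3 ± 80.7 (1.78 ± 0.18, adjusted p = 1.4e-05). Among the nuclear receptors and partners that control these enzymes, Rxra rose by 0.80, Arnt by 0.73 and Nr1i3, which encodes CAR, by 0.50, Ahr was undetermined (0.43, 95% interval 0.065 to 0.80, adjusted p = 0.053), and Rxrb lay at the control level (-0.015, 95% interval -0.16 to 0.13). CYP4 enzymes, which hydroxylate fatty acids, moved both ways, with 3 higher and 2 lower of 12. The call that ended under another setting was Nr1i3 without Ctrl 3 or 4 or Alc UA 4, on unscaled values, after quantile normalization, with equal FPKM sums (adjusted p 0.054 to 0.18). The undetermined gene called under another setting was Ahr without Ctrl 1 or 5 or Alc UA 3 or 4 or both Ctrl 1 and Ctrl 5, with library weights (adjusted p 0.0064 to 0.033).

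Of 23 tested genes of UDP-glucuronosyltransferases, sulfotransferases and sulfate donor synthesis, which conjugate drugs and hormones, 10 were higher, 1 was lower (Ugt1a6b), 2 lay at the control level and 10 were undetermined. Ugt1a1, which conjugates bilirubin, rose from 90.1 ± 36.7 to 252 ± 44.7 (1.56 ± 0.24, adjusted p = 0.00023), with no overlap. Papss2, which makes the sulfate donor, rose by 1.17. Among 21 tested glutathione S-transferase genes 1 was higher, 2 were lower, 6 lay at the control level and 12 were undetermined. The higher one, Gstt3, went from 10.9 ± 3.77 to 29.5 ± 7.45 (1.38 ± 0.21, adjusted p = 0.00018), while Alc stood at 54.7 ± 10.5. The 2 lower ones were Gstm6 and Mgst1. The count at the control level was 3 without Ctrl 3, Alc UA 1 or Alc UA 3 and 1 on unscaled values, and the median of the list turned from -0.14 to 0.041 without Ctrl 1. Of 20 tested oxidant defence genes under NRF2, 10 lay at the control level (50%, against 23.1% of all tested genes), 1 was higher (Txnrd1) and 1 was lower (Gclc). Sod2, the mitochondrial superoxide dismutase, held 49.7, 49, 42.7, 51.3 and 56.5 in Ctrl and 55.2, 55.9, 56.5, 51.4 and 54.2 in Alc UA (0.13, 95% interval -0.03 to 0.30). Keap1, the inhibitor of NRF2, also lay there (0.075, 95% interval -0.11 to 0.26). Gclc, the catalytic subunit of the rate-limiting enzyme of glutathione synthesis, fell from 84.3 ± 17.2 to 48 ± 15.9 (-0.83 ± 0.21, adjusted p = 0.0052), with overlap between the groups. Nqo1 (0.47, 95% interval -0.072 to 1.02, adjusted p = 0.14) and Hmox1 (0.69, 95% interval -0.095 to 1.48, adjusted p = 0.14) were undetermined. Leaving out Ctrl 5 lowered the count of these genes at the control level from 10 to 6. Calls that ended under another setting were Gstm6 without Ctrl 1 or Alc UA 2 or 4 or both Ctrl 1 and Ctrl 5 (adjusted p 0.059 to 0.17); Mgst1 without Ctrl 1, 2, 4 or 5, any Alc UA library, Alc 2, 3 or 5 or both Ctrl 1 and Ctrl 5, with no filter, in a fit of the 10 libraries alone, with a replicate block (adjusted p 0.053 to 0.2); Txnrd1 without Ctrl 1, 2, 3 or 4 or Alc UA 1, 2 or 4, on unscaled values, after quantile normalization, with equal FPKM sums, in a fit of the 10 libraries alone, with a replicate block (adjusted p 0.05 to 0.52).

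**Figure D3:**
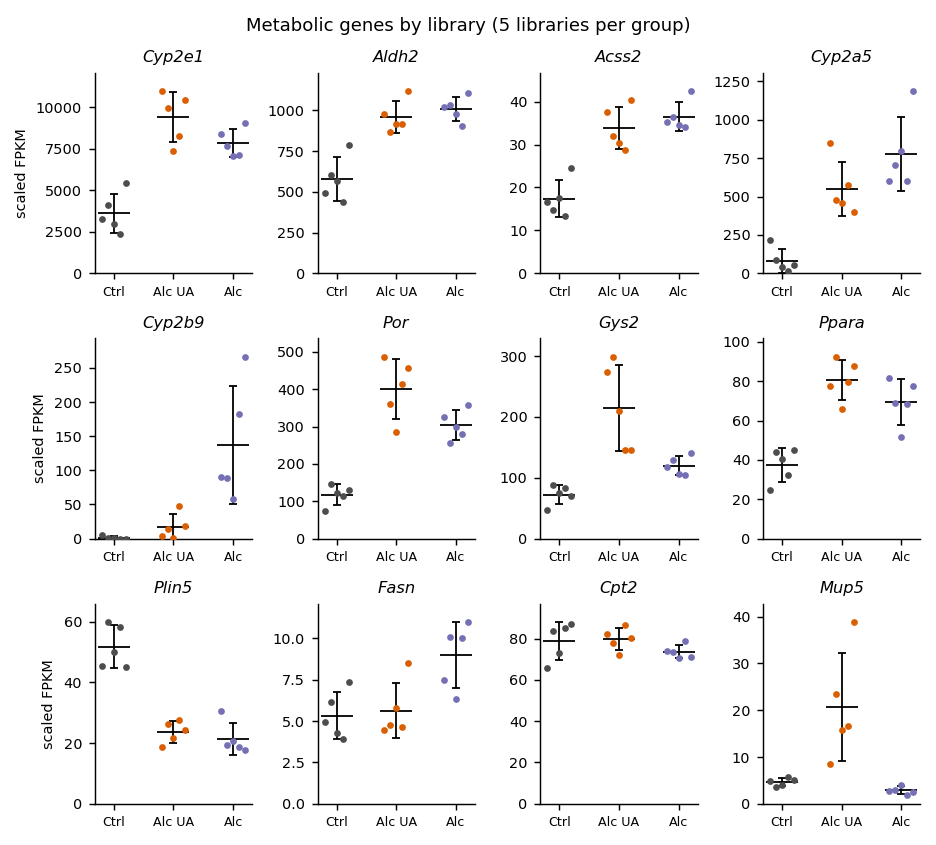
Scaled FPKM (vertical axes, linear, from 0) of 12 metabolic genes in each of 5 Ctrl, 5 Alc UA and 5 Alc libraries, with points for libraries and bars for mean ± SD. Cyp2e1, Aldh2, Acss2, Cyp2a5, Por, Gys2 and Ppara lie higher in every Alc UA library than in any Ctrl library and Plin5 lies lower, Fasn and Cpt2 lie at the control level, and Mup5 is high in Alc UA alone.

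Markers of liver sinusoidal endothelial cells, the fenestrated cells that line the hepatic capillaries, were lower without exception in Alc UA. All 20 listed genes were tested and all were lower (against 21.7% of all tested genes), with a median of -1.35 and log2 fold changes from -1.86 to -0.87. Clec4g, a lectin on these cells, held 97.7, 72.3, 58.6, 102 and 40.3 in Ctrl and 19.3, 18, 15, 23.9 and 25.5 in Alc UA (-1.76 ± 0.24, adjusted p = 9.4e-05). Tek, the receptor for angiopoietins, held 8.47, 6.5, 6.4, 8.34 and 4.4 in Ctrl and 1.58, 1.43, 1.3, 1.75 and 1.87 in Alc UA (-1.57 ± 0.16, adjusted p = 1.4e-05). Both genes separated the groups, with Ctrl 5 the lowest of the Ctrl libraries. Gata4, a transcription factor of these cells, went from 8.44 ± 1.33 to 3.74 ± 0.414 (-0.99 ± 0.10, adjusted p = 1.6e-05). Their signals to hepatocytes fell as well. Bmp2 went from 11.5 ± 3.26 to 3.09 ± 0.555 (-1.57 ± 0.19, adjusted p = 3.8e-05), and Wnt2, which instructs the hepatocytes around the central vein, from 3.46 ± 1.06 to 0.802 ± 0.135 (-1.27 ± 0.16, adjusted p = 4.7e-05). The summed level of the 20 genes ranged over 224 to 509 in Ctrl and 109 to 138 in Alc UA, and over 106 to 220.0 in Alc, whose median difference from Alc UA was 0.27 with no gene called. In bulk tissue, fewer cells of a type and less RNA per cell cannot be told apart.

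Of 16 tested Kupffer cell and macrophage genes (20 listed), 4 were higher (Timd4, Cd5l, Adgre1 and Csf1r; 25%, near the 22.4% of all tested genes), none was lower and 12 were undetermined. Their summed level was 119 to 534 in Ctrl and 321 to 816 in Alc UA. Cd5l, a secreted macrophage protein, held 60.2, 27.4, 18.3, 36 and 10.9 in Ctrl and 52.3, 45.8, 213, 59.3 and 59.4 in Alc UA (1.41 ± 0.43, adjusted p = 0.016), with Alc UA 3 far above the rest. Clec4f, the most specific Kupffer cell marker of the list, was undetermined (0.32, 95% interval -0.21 to 0.85, adjusted p = 0.3), and 9 genes of the list were higher without Ctrl 1 and 1 without Ctrl 3, Ctrl 5 or Alc UA 3. Stellate cell and matrix genes were mostly undetermined (21 of 23), with 2 lower (Timp3 and Ecm1) and the collagen gene Col1a1 at 1.72 ± 0.925 in Ctrl and 1.74 ± 1.72 in Alc UA (-0.11, 95% interval -0.77 to 0.55, adjusted p = 0.79). Globin genes were lower, and the summed level of the 9 tested erythroid genes was 1353 to 8586 in Ctrl and 408 to 1059.7 in Alc UA. Hba-a1 held 1083, 447, 1064, 2928 and 879 in Ctrl, highest in library 4, and 140.2, 121, 338, 156 and 144 in Alc UA (-2.66 ± 0.38, adjusted p = 0.00014), and Hba-a2, Hbb-bs and Hbb-bt fell by 2.31, 2.41 and 2.31. The red cell genes Car1 and Klf1 were higher instead, Car1 from 2.03 ± 0.413 to 4.42 ± 0.763. Of 14 listed B and plasma cell genes 4 were strong enough to test and these were lower (Jchain, 5.25 ± 1.99 to 2.05 ± 0.545, -0.98 ± 0.23, adjusted p = 0.0035). Such weak genes can pass the filter through the Ctrl group alone, so the count supports no direction, and 1 was lower with at least 1 FPKM required in all 10 libraries. Of 12 listed bile duct genes 7 were strong enough to test, and 3 of these were lower (42.9%, against 21.7% of all tested genes). Sox9 went from 2.32 ± 0.997 to 0.7 ± 0.374 (-0.94 ± 0.19, adjusted p = 0.0012). Weak genes such as Sox9 can pass the filter through Ctrl here too, so this count supports no direction either. The share of blood or of other cells in each liver was not measured, and its part in the differences of other genes was not tested. Genes that lost their call under another setting were Timd4 without Ctrl 3 or 5 or Alc UA 3, 4 or 5 or both Ctrl 1 and Ctrl 5, on unscaled values, with equal FPKM sums, with no filter, in a fit of the 10 libraries alone, with library weights, with a replicate block (adjusted p 0.057 to 0.11); Adgre1 without Ctrl 2, 3, 4 or 5 or Alc UA 3 or both Ctrl 1 and Ctrl 5, on unscaled values, with equal FPKM sums, with a pseudocount of 5, with no filter, in a fit of the 10 libraries alone, with a replicate block (adjusted p 0.056 to 0.089); Csf1r without Ctrl 2, 3, 4 or 5 or Alc UA 3 or 5, on unscaled values, with equal FPKM sums, with no filter, in a fit of the 10 libraries alone, with a replicate block (adjusted p 0.051 to 0.12); Ecm1 without Ctrl 1, 2, 3 or 4 or Alc UA 1, 3 or 5 or Alc 1, 3 or 4, with equal FPKM sums, with no filter, in a fit of the 10 libraries alone, with library weights, with a replicate block (adjusted p 0.053 to 0.12).

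**Figure D4:**
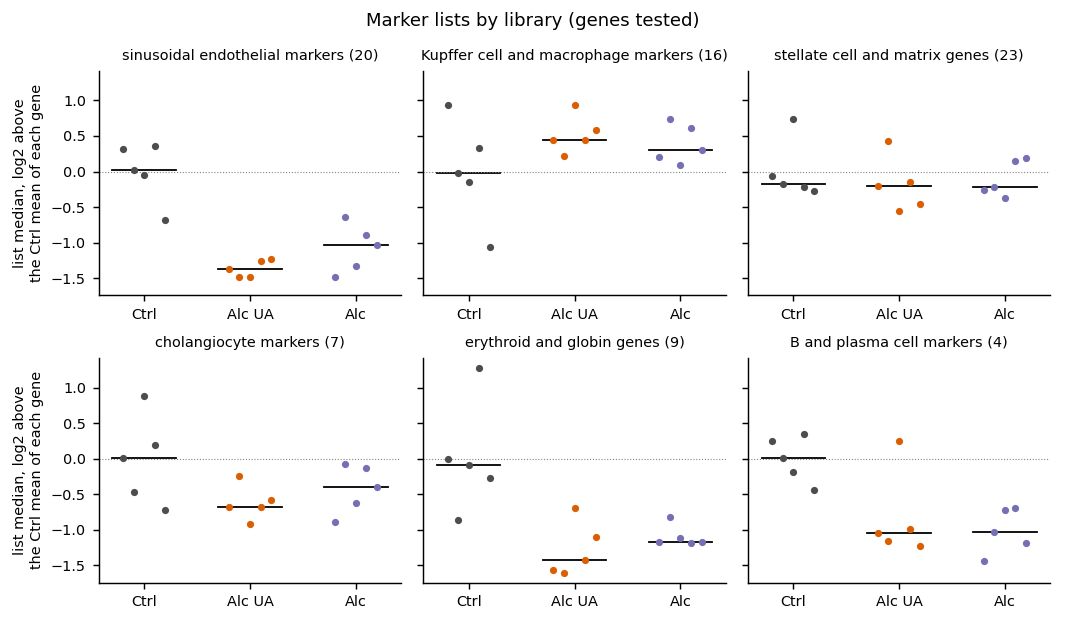
Median over the tested genes of 6 marker lists of the log2 level above the Ctrl mean of each gene (vertical axis), in each of 5 Ctrl, 5 Alc UA and 5 Alc libraries, with lines at the group medians and the number of genes in parentheses. The sinusoidal endothelial points of Alc UA all lie below those of Ctrl, with Ctrl 5 the lowest Ctrl point, while the points of the other 5 lists overlap between Alc UA and Ctrl.

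Hepatocyte genes of the zone around the central vein were often higher. Of 24 tested genes of that zone, 12 were higher (50%) and 3 lower, and of 21 tested genes of the portal zone 2 were higher, 1 was lower and 16 were undetermined. The difference between the zones was not tested. Slc1a2, a glutamate transporter of the central zone, held 28.4, 14.8, 11.4, 8.81 and 20.8 in Ctrl and 72.4, 57.4, 44.2, 46.7 and 47.1 in Alc UA (1.70 ± 0.25, adjusted p = 0.00017). Glul, glutamine synthetase, went from 240.1 ± 111 to 450.2 ± 64.7 and was called higher (adjusted p = 0.0028), with overlap. Among the Wnt targets of this zone the direction was mixed, with Axin2 and Tbx3 lower, Rnf43 and Znrf3 higher, and Notum at the control level (0.078, 95% interval -0.25 to 0.41). In the portal zone Fbp1, a gluconeogenic enzyme, was higher (0.90 ± 0.23, adjusted p = 0.0061), while Cps1, which opens the urea cycle, was undetermined (311, 478, 476, 612 and 517 in Ctrl, 1252, 738, 635, 808 and 611 in Alc UA, 0.74, 95% interval 0.083 to 1.39, adjusted p = 0.063). Of 23 tested hepatocyte identity genes, 3 were higher, 3 lower and 6 at the control level (3 without Ctrl 5). Foxa1 (-0.011, 95% interval -0.28 to 0.26) and Nr1h4 lay there and Hnf4a was undetermined (0.24, 95% interval -0.13 to 0.61, adjusted p = 0.28), as was Alb (0.054, 95% interval -0.57 to 0.68, adjusted p = 0.89). Ttr, the thyroxine carrier, fell from 6813 ± 1042 to 3949 ± 847 (-0.80 ± 0.17, adjusted p = 0.0019). The call that ended under another setting was Axin2 without Ctrl 1 and Ctrl 5 (adjusted p = 0.062). No longer inside the bounds of the control level under another setting was Notum without Ctrl 2. The undetermined gene called under another setting was Cps1 without Alc 1 or 4, in a fit of the 10 libraries alone, with library weights (adjusted p 0.022 to 0.047).

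Lipid genes moved both ways within each step. In fatty acid synthesis 7 of 23 tested genes were higher (30.4%), 3 lower and 4 at the control level (17.4%). Over all tested genes 22.4% were higher and 23.1% lay at the control level. Fasn, fatty acid synthase, lay at the control level, with 4.91, 6.12, 4.27, 3.9 and 7.37 in Ctrl and 4.46, 4.75, 5.8, 4.64 and 8.5 in Alc UA (0.066, 95% interval -0.32 to 0.45). Against Alc, Fasn differed by -0.60, 95% interval -0.99 to -0.21, which did not pass the adjusted threshold. Acaca, which makes its substrate malonyl-CoA, rose from 3.55 ± 0.578 to 5.51 ± 1.07 (0.51 ± 0.11, adjusted p = 0.0026), and the elongase Elovl6 by 1.01. Insig2, which holds SREBP in the endoplasmic reticulum, fell from 191 ± 40.0 to 80.8 ± 33.6 (-1.29 ± 0.23, adjusted p = 0.00066). Srebf1 was undetermined, with 6.7, 7.47, 6.33, 6.48 and 45.6 in Ctrl, library 5 far above the others, and 14, 16.7, 14.7, 23.5 and 18.9 in Alc UA. Scd1, the stearoyl-CoA desaturase, was undetermined as well (0.024, 95% interval -1.21 to 1.26, adjusted p = 0.98). In triglyceride assembly 11 of 23 genes were higher (47.8%) and 5 lower. Dgat2, which adds the last fatty acid, held 99, 105, 95.6, 86.7 and 152 in Ctrl and 221, 206, 182, 223 and 257 in Alc UA (1.03 ± 0.14, adjusted p = 0.00011), while Dgat1 lay at the control level (0.0034, 95% interval -0.18 to 0.19). The droplet coat gene Plin5 fell, from 45.5, 59.9, 50.2, 58.3 and 45 in Ctrl to 18.6, 26.2, 21.8, 27.6 and 24.4 in Alc UA (-1.10 ± 0.14, adjusted p = 6.8e-05), with no overlap, and Plin2 was undetermined (-0.28, 95% interval -0.87 to 0.31, adjusted p = 0.42). Gpam and Lpin1, earlier enzymes of the same route, rose by 0.97 and 1.56, and Pparg by 0.88. Without scaling, 3 genes of fatty acid synthesis were higher, against 4 with equal FPKM sums, without Ctrl 4 or without Alc UA 5, and the median of the list turned from 0.066 to -0.10, and it also turned with equal FPKM sums (-0.024), without Ctrl 1 (-0.0014) and without Alc UA 5 (-0.0068). No longer inside the bounds of the control level under another setting was Fasn without Ctrl 2 or 5 or Alc UA 1, 2 or 4 or both Ctrl 1 and Ctrl 5, with a pseudocount of 0.1. The undetermined gene called under another setting was Srebf1 without Ctrl 5 or both Ctrl 1 and Ctrl 5, with library weights (adjusted p 0.00019 to 0.018).

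In fatty acid oxidation the controlling receptor and the entry enzyme were higher. Some enzymes of the spiral were higher too, and others lay at the control level. Acyl-CoA dehydrogenases stood in both classes. Ppara, the nuclear receptor that controls these genes, held 24.8, 43.8, 40.6, 32.3 and 45 in Ctrl and 77.4, 92.5, 65.7, 79.7 and 87.9 in Alc UA (1.11 ± 0.16, adjusted p = 0.00014). Cpt1a, which admits long-chain fatty acids to mitochondria, held 109, 176, 187, 167 and 227 in Ctrl and 348, 315, 276, 239 and 293 in Alc UA (0.79 ± 0.18, adjusted p = 0.0026). No Alc UA library overlapped with Ctrl for either. In the whole list 9 of 31 genes were higher (29%), 1 was lower (Etfb) and 10 lay at the control level (32.3%). The first and last shares were not far from the 22.4% and 23.1% of all tested genes. On unscaled values 5 were higher, and the median turned from 0.19 to -0.0035. Those at the control level included Cpt2 (66, 83.7, 72.8, 85.4 and 87 in Ctrl, 82.2, 78.1, 72.1, 86.4 and 80.2 in Alc UA, 0.02, 95% interval -0.16 to 0.20) and the dehydrogenases Acadl and Acadm. Fgf21, a fasting hormone, was undetermined with a mean of 44.1 ± 28.8 in Ctrl and 16.5 ± 8.21 in Alc UA (-1.23, 95% interval -2.39 to -0.06, adjusted p = 0.081). In uptake and binding, the scavenger receptor gene Cd36 was higher (75.2, 25, 27.1, 16.7 and 28.1 in Ctrl, 68.7, 87.2, 57.2, 50.9 and 93.1 in Alc UA, 1.19 ± 0.37, adjusted p = 0.017), with Ctrl 1 inside the Alc UA range. Fabp1, the main fatty acid binding protein of hepatocytes, fell from 10686 ± 1829.8 to 5826 ± 1603 (-0.90 ± 0.27, adjusted p = 0.014). Lipoprotein genes leaned lower, with 8 of 21 lower (38.1%), 2 higher and 6 at the control level. Apob, the structural protein of VLDL, rose from 260.2 ± 60.0 to 434 ± 45.9 (0.76 ± 0.15, adjusted p = 0.0013), Apof fell from 332 ± 55 to 201 ± 34.5 (-0.73 ± 0.14, adjusted p = 0.00087), and Lcat and Sar1b lay at the control level. With no filter on low values 4 lipoprotein genes were lower, and without Ctrl 4 or without Alc UA 2 there were 5. Genes that lost their call under another setting were Cd36 without Ctrl 4, on unscaled values (adjusted p = 0.051); Fabp1 with no filter (adjusted p = 0.088). The undetermined gene called under another setting was Fgf21 without Ctrl 5 or both Ctrl 1 and Ctrl 5, in a fit of the 10 libraries alone, with library weights, with a replicate block (adjusted p 0.024 to 0.04).

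In cholesterol metabolism, 12 of 29 tested genes were higher, 2 lower and 3 at the control level. Hmgcs1, an early enzyme of synthesis, held 35.6, 46.9, 29.6, 21.7 and 45.9 in Ctrl and 19, 18.3, 18.8, 14.8 and 18.9 in Alc UA (-0.91 ± 0.21, adjusted p = 0.003). Every Alc UA library lay below every Ctrl library. Named genes of efflux were higher. Abca1, which loads HDL, held 7.76, 7.67, 9.47, 6.92 and 10.2 in Ctrl and 16.3, 20.3, 13.6, 19.1 and 16.1 in Alc UA (0.94 ± 0.11, adjusted p = 3.5e-05). Abcg5 and Abcg8, which pump sterols into bile, rose by 0.82 and 1.17. Bile acid genes held 11 higher, 2 lower and 4 at the control level of 26 tested. The conjugate pumps Abcc2 (30.5 ± 8.08 to 84.3 ± 19.6, 1.44 ± 0.21, adjusted p = 0.00016) and Abcc3 (1.31 ± 0.20, adjusted p = 0.00021) rose. Cyp7a1, the rate-limiting enzyme of bile acid synthesis, was undetermined (40.4, 38, 24.8, 12 and 39.5 in Ctrl, 89.2, 18, 46.3, 32.7 and 49.2 in Alc UA, 0.53, 95% interval -0.41 to 1.46, adjusted p = 0.34), and so was Cyp8b1 (-0.0051, 95% interval -0.54 to 0.53, adjusted p = 0.99), while the bile acid receptor gene Nr1h4 lay at the control level (0.11, 95% interval -0.13 to 0.35).

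Glycogen genes were among the most shifted of the metabolic lists, with 12 of 17 higher (70.6%), 2 lower and none at the control level. Gys2, the liver glycogen synthase, held 46.9, 87.8, 74.2, 82.5 and 70.4 in Ctrl, 274, 299, 210.1, 146 and 146 in Alc UA and 117, 129.6, 107, 104 and 141 in Alc (1.53 ± 0.21, adjusted p = 9.8e-05). All Alc UA libraries exceeded all Ctrl libraries and all Alc libraries, yet the difference from Alc did not pass the adjusted threshold (0.78, 95% interval 0.34 to 1.23, adjusted p = 0.46). Ppp1r3c, which brings a phosphatase to glycogen, moved the other way, from 21.1, 26.6, 23, 32.6 and 54.7 in Ctrl to 3.78, 2.75, 10.7, 4.81 and 6.53 in Alc UA (-2.31 ± 0.29, adjusted p = 5.6e-05). The related targeting subunit Ppp1r3g was higher in 4 of 5 Alc UA libraries than in any Ctrl library (0.964, 2.76, 3.02, 2.85 and 3.38 in Ctrl, 69.3, 61.4, 2.64, 14 and 34.3 in Alc UA, 2.81 ± 0.68, adjusted p = 0.004). Glycolysis and gluconeogenesis held 12 higher, 2 lower and 10 genes at the control level of 29, the last count being 6 with equal FPKM sums. The glucose transporter Slc2a2 rose from 58.7 ± 10.9 to 113 ± 11.2 (0.94 ± 0.13, adjusted p = 8.7e-05), and Pdk1, which switches pyruvate dehydrogenase off, from 11 ± 1.75 to 24 ± 4.98 (1.05 ± 0.14, adjusted p = 9.2e-05), together with Pdha1, a subunit of that dehydrogenase (0.80 ± 0.12, adjusted p = 0.00021). The glycolytic enzymes Pgam1 (0.10, 95% interval -0.10 to 0.30) and Gpi1 lay at the control level. In insulin signalling 9 of 16 genes were higher and none was lower. Foxo3 held 4.13, 4.86, 6.03, 4.5 and 4.91 in Ctrl and 11, 11.5, 8.65, 11.2 and 9.31 in Alc UA (0.95 ± 0.12, adjusted p = 7.2e-05), Insr rose by 0.68, and Akt1 lay at the control level (0.13, 95% interval -0.048 to 0.30).

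Amino acid catabolism and the urea cycle held 14 higher, 2 lower and 13 genes at the control level of 44, the last count being 8 without Ctrl 5. The shares were 31.8% higher and 29.5% at the control level, against 22.4% and 23.1% of all tested genes. Aldh4a1, the mitochondrial enzyme that completes proline breakdown, rose from 77.5 ± 20.7 to 157 ± 14.7 (1.04 ± 0.15, adjusted p = 0.00012), and Gldc, of the glycine cleavage system, fell from 46.8 ± 10.6 to 18.9 ± 4.09 (-1.26 ± 0.20, adjusted p = 0.00024). Bckdhb, of branched-chain breakdown, lay at the control level (-0.033, 95% interval -0.23 to 0.16). In the methionine and folate cycles 12 of 25 were higher (48%). Aldh1l1, which draws one-carbon units off as carbon dioxide, held 154, 116, 147, 144 and 235 in Ctrl and 417, 278, 324, 316 and 275 in Alc UA (1.03 ± 0.18, adjusted p = 0.00051), with no overlap between the groups, and Mat1a and Gnmt, which make and spend S-adenosylmethionine, rose by 0.69 and 0.88. Genes of NAD synthesis and the sirtuins moved both ways (9 higher, 6 lower and 8 at the control level of 29). These shares were 31%, 20.7% and 27.6%, against 22.4%, 21.7% and 23.1% of all tested genes. Nampt, which salvages nicotinamide, rose from 11.9 ± 1.69 to 24.7 ± 4.62 (0.98 ± 0.15, adjusted p = 0.00018), and Nmnat3, its mitochondrial follow-on enzyme, from 3 ± 0.134 to 5.36 ± 0.601 (0.66 ± 0.082, adjusted p = 4.7e-05). Sirt1 was under 5 FPKM (0.0058, 95% interval -0.21 to 0.22, adjusted p = 0.97).

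Plasma proteins of complement and clotting leaned higher, with 19 of 39 tested genes higher (48.7%), 2 lower (C8g and Cfhr2) and 5 at the control level. C2, of the classical complement pathway, held 28.1, 24.9, 31.1, 30.8 and 41.7 in Ctrl and 60.4, 58.6, 54.1, 53.3 and 60.0 in Alc UA (0.87 ± 0.11, adjusted p = 5.9e-05). The clotting factor gene F5 rose from 52.7 ± 10.2 to 103 ± 11.4 (0.96 ± 0.14, adjusted p = 0.00017), with no overlap for either gene, and the small complement subunit gene C8g fell by 0.62. The list held 11 higher genes on unscaled values, and 10 at the control level without Ctrl 1 or 9 without Alc UA 5. Acute-phase genes divided. Il6ra, the receptor for interleukin 6, rose from 3.88 ± 1.67 to 12.7 ± 3.87 (1.51 ± 0.26, adjusted p = 0.00041) and Serpina3n by 1.25, while the classic acute-phase gene Saa1 was undetermined, at 410.1, 14.9, 24.5, 23.7 and 21 in Ctrl and 215, 296, 31.1, 92.7 and 20.9 in Alc UA. Ctrl 1 held the highest Saa1 level of the 10 libraries. Hpx, haemopexin, lay at the control level (0.10, 95% interval -0.20 to 0.41). In heme synthesis Alas1, the rate-limiting enzyme of liver, held 108, 225, 190.3, 222 and 189 in Ctrl and 561, 367, 515, 615 and 704 in Alc UA (1.57 ± 0.20, adjusted p = 5.5e-05). Hamp, which encodes the iron hormone hepcidin, was 2488 ± 1418 in Ctrl and 961 ± 346 in Alc UA and just missed the threshold (-1.18, 95% interval -2.17 to -0.19, adjusted p = 0.052), its weaker copy Hamp2 fell (-1.67 ± 0.54, adjusted p = 0.021), Bmp6, the endothelial signal that induces it, fell by 0.85, and Hfe lay at the control level (0.019, 95% interval -0.16 to 0.20). Innate immune genes were mostly undetermined. Of 20 tested chemokine and NF-kB genes 2 were higher, 1 was lower (Cxcl10), 3 lay at the control level (15%) and 14 were undetermined. Myd88, the adaptor of Toll-like receptors, lay at the control level (-0.0087, 95% interval -0.20 to 0.18). Of 30 interferon-stimulated genes 3 were higher, 3 lower and 3 at the control level (10%). Both shares at the control level were below the 23.1% of all tested genes. Stat2, a transcription factor of the interferon response, held 28.3, 24.9, 25, 25.3 and 22.1 in Ctrl and 13.8, 9.74, 12.1, 9.99 and 14.8 in Alc UA (-1.01 ± 0.13, adjusted p = 5.8e-05), whereas 21 of the 30 were undetermined. Among genes of antigen presentation 5 of 18 lay at the control level (27.8%, against 23.1% of all tested genes). Tap2, a peptide transporter subunit, was among them (0.043, 95% interval -0.20 to 0.28). Without Alc UA 1, 10 interferon-stimulated genes were lower. Genes that lost their call under another setting were Hamp2 without Ctrl 1 or Alc UA 5 or both Ctrl 1 and Ctrl 5, with library weights (adjusted p 0.056 to 0.16); Cxcl10 without Ctrl 1 or Alc UA 5 or both Ctrl 1 and Ctrl 5, with library weights (adjusted p 0.054 to 0.12). Undetermined genes called under another setting were Saa1 without Ctrl 1 or both Ctrl 1 and Ctrl 5, with library weights (adjusted p 0.022 to 0.04); Hamp without Ctrl 5 or Alc UA 3 or Alc 3 or both Ctrl 1 and Ctrl 5, on unscaled values, after quantile normalization, with equal FPKM sums, with at least 1 FPKM in all 10 libraries, with library weights, with a replicate block (adjusted p 0.003 to 0.049).

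Heat shock chaperone genes moved both ways. Of 25 tested chaperones 9 were lower (36%), 5 higher (20%) and 4 at the control level. Over all tested genes 21.7% were lower and 22.4% higher. The higher chaperones were not all mitochondrial. Hspa1a, an inducible HSP70 gene, held 33.9, 16.3, 14.6, 117 and 12.9 in Ctrl, highest in library 4, and 0.651, 1.2, 1.33, 1.29 and 3.59 in Alc UA (-3.48 ± 0.55, adjusted p = 0.00026). Its near-identical copy Hspa1b fell too (69.9 ± 60.4 to 9.5 ± 6.6, -2.68 ± 0.51, adjusted p = 0.00092), and reads of the 2 genes may be divided between them. Their activator Hsf1 went from 9.12 ± 0.768 to 6.65 ± 0.409 (-0.40 ± 0.067, adjusted p = 0.00037). The mitochondrial chaperones Hspa9 (122 ± 37.9 to 212 ± 21.4, 0.86 ± 0.18, adjusted p = 0.0016) and Hspd1 (0.69 ± 0.16, adjusted p = 0.0026) rose, and the constitutive Hsp90ab1 lay at the control level (0.021, 95% interval -0.21 to 0.25). The count of lower genes dropped to 5 without Ctrl 2 and to 5 without Alc UA 2. The promoter of Hspa1a is shown as that of the largest fall among the named genes, with its match to the heat shock element (GAANNTTC) in capitals. That element was present in 7 of 18 tested chaperones with a promoter (38.9%), 3 of them lower besides Hspa1a, and in 7.73% of all symbols.
Hspa1a (chr17:34972157-34972406, minus strand, 96 bases before the start): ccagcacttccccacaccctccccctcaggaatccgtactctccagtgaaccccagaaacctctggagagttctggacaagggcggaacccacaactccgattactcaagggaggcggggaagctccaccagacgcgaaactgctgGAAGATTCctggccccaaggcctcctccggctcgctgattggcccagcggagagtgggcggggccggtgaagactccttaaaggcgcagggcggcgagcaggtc

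Other stress programmes did not move as 1 group. In the unfolded protein response of the endoplasmic reticulum 10 of 24 genes were higher (6 on unscaled values) and 2 lower. Herpud1, of protein degradation there, held 43.8, 51, 51, 55.8 and 67.3 in Ctrl and 133, 164, 108, 209.6 and 148 in Alc UA (1.47 ± 0.21, adjusted p = 0.00012), and the transcription factor Xbp1 rose by 0.68, but the chaperone Hspa5 was undetermined, with Ctrl 5 the highest library (0.06, 95% interval -0.52 to 0.64, adjusted p = 0.87). In the integrated stress response Atf5 fell (376 ± 122 to 167 ± 38.3, -1.14 ± 0.22, adjusted p = 0.0011) and Trib3 rose (0.65 ± 0.16, adjusted p = 0.0046). Of 19 p53 targets 7 were lower (36.8%) and 1 was higher (Ccng1). Cdkn1a, which encodes the cell cycle inhibitor p21, held 20.1, 20.3, 24.1, 38.8 and 18.6 in Ctrl and 1.43, 9.64, 1.98, 3.74 and 0.983 in Alc UA (-2.71 ± 0.46, adjusted p = 0.00043), and Sco2, a cytochrome oxidase assembly factor, held 43, 18.3, 18.3, 60.0 and 15.6 in Ctrl and 2.76, 3.71, 2.27, 3.4 and 2.45 in Alc UA (-2.84 ± 0.31, adjusted p = 1.8e-05). Both genes separated the groups. Immediate-early genes varied widely between libraries. Maff, a small Maf factor, held 1.23, 1.52, 1.51, 1.44 and 0.942 in Ctrl and 13.8, 34.7, 3.52, 24.6 and 8.61 in Alc UA (2.62 ± 0.42, adjusted p = 0.00027), lowest in Alc UA 3, and Dusp6 was also lowest there (84.7, 77.2, 14.6, 74.8 and 43.6 in Alc UA, 1.71 ± 0.39, adjusted p = 0.0029), but 20 of 23 were undetermined. Without Alc UA 3, 8 immediate-early genes and 5 p53 targets were higher. Among genes of the cell cycle 6 of 16 tested were lower (37.5%, against 21.7% of all tested genes), none was higher and 12 listed genes were too weak to test. Weak genes can pass the filter through the Ctrl group alone, so this count supports no direction. The lower ones included Cdkn1b and Cdkn1c, which encode inhibitors of the cycle. Mcm7, of the replicative helicase, went from 5.44 ± 0.436 to 3.9 ± 0.553 (-0.40 ± 0.081, adjusted p = 0.0014). Genes that lost their call under another setting were Ccng1 on unscaled values, with equal FPKM sums (adjusted p 0.18 to 0.35); Cdkn1b without Ctrl 1, 3 or 4 or Alc UA 2, 4 or 5, in a fit of the 10 libraries alone (adjusted p 0.056 to 0.081).

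Autophagy and mitophagy genes, which clear damaged organelles, were mostly at the control level or somewhat higher. Of 43 tested genes 19 lay at the control level (44.2%, against 23.1% of all tested genes), 19 were higher, 1 was lower (Tfe3) and 4 were undetermined, with a median of 0.16. Mfn2, the mitochondrial fusion protein, stood out: it held 19.4, 20.4, 22.7, 19.5 and 28.3 in Ctrl and 52.3, 51.2, 38.7, 42.2 and 50.2 in Alc UA (1.06 ± 0.12, adjusted p = 2.4e-05). Opa1, its partner on the inner membrane, rose by 0.62. The mitophagy kinase gene Pink1 was higher by a little, with overlap (71.7, 94.8, 76.8, 84 and 82.9 in Ctrl, 103, 82.6, 94.1, 101 and 107 in Alc UA, 0.25 ± 0.088, adjusted p = 0.032). The autophagy starter Becn1 held 28.6, 29.3, 30.7, 33.9 and 31.2 in Ctrl and 31.1, 33.1, 30.8, 33 and 32.1 in Alc UA (0.059, 95% interval -0.077 to 0.20), and the cargo receptor Sqstm1 lay at the control level too (-0.08, 95% interval -0.36 to 0.20). The higher count depended on the scaling, with 7 higher on unscaled values and 8 with equal FPKM sums, and the median turned to -0.022 on unscaled values. The call that ended under another setting was Pink1 without Ctrl 1 or 3 or Alc UA 1, 4 or 5 or both Ctrl 1 and Ctrl 5, on unscaled values, after quantile normalization, with equal FPKM sums, in a fit of the 10 libraries alone, with library weights, with a replicate block (adjusted p 0.062 to 0.59). No longer inside the bounds of the control level under another setting was Sqstm1 on unscaled values, with equal FPKM sums.

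Of 38 tested complex I genes 24 were lower (63.2%), 8 lay at the control level and 3 were higher, among them Ndufs1 and Ndufv1. Core subunits of the complex stood in all of these classes. Ndufa5, an accessory subunit, held 237, 202, 139, 264 and 156 in Ctrl and 117, 111, 137, 107 and 101 in Alc UA (-0.76 ± 0.15, adjusted p = 0.0012), and Ndufs1 held 37.4, 37.6, 34.1, 35.3 and 42.6 in Ctrl and 59.2, 54.9, 45.4, 48 and 48.9 in Alc UA (0.44 ± 0.092, adjusted p = 0.0015). The 2 genes separated the groups in opposite directions. In complexes II to V 15 of 43 were lower, 7 higher and 12 at the control level. Sdha, the flavoprotein of complex II, rose from 94.8 ± 34.2 to 175 ± 15.9 (0.93 ± 0.19, adjusted p = 0.0012), and Atp5b, the catalytic subunit of ATP synthase, from 369 ± 105 to 643 ± 65.6 (0.84 ± 0.17, adjusted p = 0.0012). Cox7a1, a small subunit of complex IV, fell from 4.74 ± 1.02 to 1.95 ± 0.865 (-0.98 ± 0.18, adjusted p = 0.0007). Of 81 ribosomal protein genes 35 lay at the control level (43.2%), 22 were lower and 1 was higher (Rpl3). Rps27l fell from 367 ± 79.4 to 231 ± 25.1 (-0.65 ± 0.14, adjusted p = 0.0023). Mitochondrial ribosomal protein genes had 40 of 78 at the control level (51.3%), 24 lower, such as Mrpl36 (-0.78 ± 0.13, adjusted p = 0.00039), and 7 higher, such as Mrpl45 (0.50 ± 0.081, adjusted p = 0.0003). Proteasome genes were mostly at the control level, with 22 of 37 at its level (59.5%), Psmd12 among them (48.2, 51.2, 42.8, 48.8 and 53.7 in Ctrl, 54.6, 47.1, 50.1, 54.8 and 47.4 in Alc UA, 0.054, 95% interval -0.10 to 0.21). Translation factors had 26 of 64 at the control level and 22 higher, among them Eif2d (11.4 ± 0.454 to 17.2 ± 0.765, 0.56 ± 0.058, adjusted p = 1.6e-05). Genes that lost their call under another setting were Ndufv1 without Ctrl 1 or 3 or Alc UA 1, 2 or 4, on unscaled values, after quantile normalization, with equal FPKM sums, in a fit of the 10 libraries alone, with a replicate block (adjusted p 0.055 to 0.23); Rpl3 without Ctrl 1 or Alc UA 5 or both Ctrl 1 and Ctrl 5, on unscaled values (adjusted p 0.06 to 0.12).

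Transcript length moved with these family results. Over the 10529 tested genes (98.1%) with a protein-coding transcript in GENCODE M21, the median log2 fold change went from -0.29 for transcripts up to 500 bases (164 genes, 40.2% lower) to 0.12 for those over 4000 bases (1719 genes, 34.7% higher). Against Alc the same classes ran from -0.023 to 0.043. Complex I genes had a median length of 704 bases and ribosomal protein genes of 681. Taken relative to genes of the same length class, the median of complex I went from -0.37 to -0.15, that of complexes II to V from -0.27 to -0.076, that of ribosomal proteins from -0.24 to -0.10 and that of mitochondrial ribosomal proteins from -0.16 to -0.086. The length classes hold the genes of these families too, so a part of these shifts toward 0 may be built in. The sinusoidal endothelial median, from transcripts of 3337 bases, went from -1.35 to -1.42. The part of transcript length in the results of single genes was not tested. The counts of lower genes in these families also moved with single libraries. For complex I the count of 24 fell to 14 without Ctrl 1, 13 without Ctrl 4, 14 without Alc UA 1, 12 without Alc UA 2, 15 without Alc UA 4 and 12 without Ctrl 1 and Ctrl 5. For complexes II to V the count of 15 rose to 25 without Ctrl 3 and to 28 on unscaled values. For ribosomal proteins the count of 22 lay between 10 without Ctrl 4 and 37 without Ctrl 3, being 14 without Ctrl 1, 13 without Ctrl 2, 12 without Alc UA 1 and 13 without Alc UA 2, and reached 57 on unscaled values. On unscaled values 44 mitochondrial ribosomal and 13 proteasome genes were lower, against 24 and 4 after scaling, and 10 translation factors were higher, against 22. Without Alc UA 5, 4 mitochondrial ribosomal genes were higher, and without Ctrl 1 and Ctrl 5, 22 ribosomal protein genes lay at the control level.

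**Figure D5:**
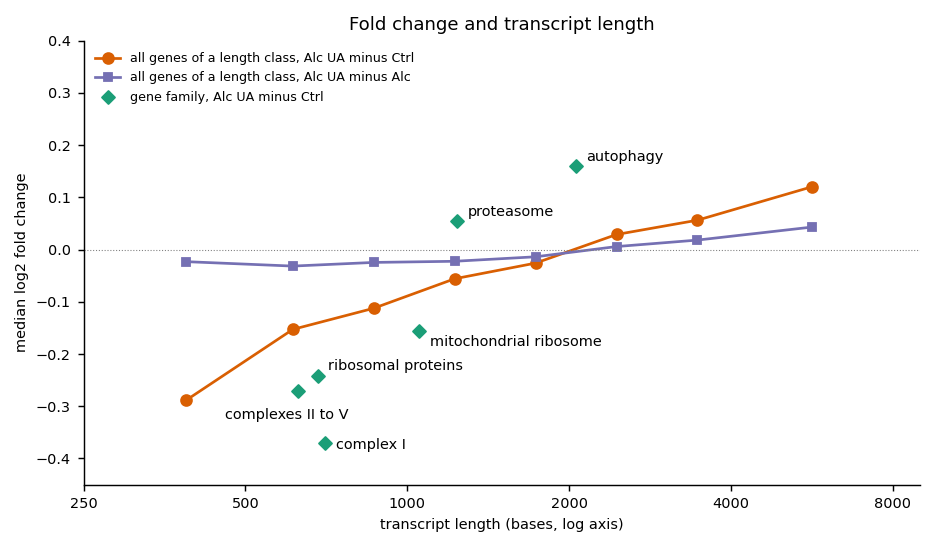
Median log2 fold change (vertical axis) of all tested genes in 8 classes of transcript length (horizontal log axis, bases), for Alc UA minus Ctrl and Alc UA minus Alc, with diamonds for the medians of 6 gene families at their median length. The Alc UA minus Ctrl line climbs from -0.29 to 0.12, the Alc UA minus Alc line stays nearer to 0, and the respiratory and ribosomal diamonds lie at short lengths below 0.

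The major urinary proteins, pheromone carriers that the liver secretes under growth hormone and androgen control, were the family in which the Alc UA and Alc groups lay farthest apart by their medians among the lists described here. Of 22 tested genes 11 were higher in Alc UA than in Ctrl, 1 was lower (Mup21) and 10 were undetermined. The median was 1.26 for Alc UA minus Ctrl, -0.52 for Alc minus Ctrl and 1.45 for Alc UA minus Alc. These genes are nearly identical, and how their shared reads were divided is not known, so single members are uncertain. Mup5 held 4.97, 3.65, 3.95, 5.69 and 5.07 in Ctrl, 8.42, 23.5, 15.8, 16.6 and 38.9 in Alc UA and 2.83, 2.99, 4.11, 1.82 and 2.61 in Alc. All Alc UA libraries exceeded all libraries of the other groups, with 1.79 ± 0.28, adjusted p = 0.00024 against Ctrl. Mup5 was the 1 gene called against Alc (2.35, 95% interval 1.76 to 2.94, adjusted p = 0.0039). Mup17 (407 ± 318 to 3998 ± 2484, 3.43 ± 0.59, adjusted p = 0.00047) and Mup16 (478 ± 274 to 3055 ± 890.4, 2.80 ± 0.52, adjusted p = 0.00074) rose against Ctrl, and their differences from Alc were 1.66, 95% interval 0.40 to 2.92 and 1.03, 95% interval -0.067 to 2.13. Mup21 went the other way, 529 ± 165 in Ctrl to 212 ± 74.7 in Alc UA (-1.34 ± 0.31, adjusted p = 0.0029). A list of genes known for higher levels in male liver, which holds 6 of these Mup genes and so is not separate from them, was mostly undetermined against Ctrl (21 of 25 tested), with a median of 0.17 for Alc UA minus Ctrl, -1.17 for Alc minus Ctrl and 0.87 for Alc UA minus Alc. Cyp4a12a, whose reads may be shared with a near-identical copy, held 183, 140.3, 143, 109.7 and 179 in Ctrl, 102, 180.3, 141, 114 and 171 in Alc UA and 70.5, 102, 48.2, 97.7 and 72.1 in Alc (-0.10, 95% interval -0.55 to 0.35, adjusted p = 0.72). Elovl3, also driven by the clock, fell from 144, 264, 203, 404 and 361 in Ctrl to 30.9, 24.1, 38.1, 22.9 and 39.9 in Alc UA (-3.04 ± 0.26, adjusted p = 3.4e-06). Of 23 listed genes known for higher levels in female liver, 7 were strong enough to test and 6 of these were higher (3 without Alc UA 5), but a weak gene passes the filter through the group where it is high, so this count supports no direction. Leaving out Ctrl 5 raised the number of higher genes among the male-biased ones from 2 to 7, and their median turned to -0.074 without Ctrl 1 and to -0.016 on unscaled values.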

How the data were processed

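Liver RNA of WT mice was sequenced in 15 libraries, 5 per group. The authors deposited FPKM values per gene symbol, and the submitters' processing notes name RSEM 1.2.8, StringTie, HISAT2 2.1.0, DESeq and Bowtie2 2.2.5, without their roles. No source used here gives the genome build, the annotation, strand handling or how shared reads were divided, so near-identical genes and overlapping or antisense genes are uncertain. FPKM holds no read count, so depth is unknown. Of the rows, 25 carry names that a spreadsheet turned into dates (15 were tested) and are not named.

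From the deposited FPKM, libraries were scaled by the median of ratios, 1 was added, and log2 values were fitted with limma 3.58.1 (R 4.3.3) over all 15 libraries, 3 groups and a mean-variance trend. P-values were adjusted by Benjamini-Hochberg within each contrast. The procedure was tested on simulated data. Genes with FPKM of at least 1 in at least 5 of the 10 Ctrl and Alc UA libraries were tested. Alternatives changed the scaling, pseudocount (0.1 or 5), filter, prior, library weights, the libraries fitted, a replicate block, and left out each library.

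The members and gene lists were chosen with earlier results of these data known. Named genes were the 10 largest non-overlapping rises and falls with at least 2 FPKM, up to 3 called genes of smallest p and up to 2 genes of narrowest interval at the control level per list, genes called against Alc, and a fixed set, of which a part is printed. Outside that rule, these were chosen after their values were seen: Abcg8, Acadm, Acot8, Adgre1, Adh7, Axin2, Bmp6, Ccng1, Cdkn1b, Cfhr2, Clec4f, Clec4g, Clock, Coq10b, Cps1, Cry1, Cry2, Cyp4a12a, Etfb, Fabp1, Foxa1, Glul, Gnmt, Gpam, Hamp2, Hbb-bt, Hmgcs1, Hspa5, Hspa9, Hspd1, Klf1, Leo1, Lonrf3, Lpin1, Mat1a, Ndufv1, Nfil3, Nr1d1, Nr1d2, Per1, Ppp1r3g, Rnf43, Rora, Rpl3, Socs3, Tars, Tbx3, Tfe3, Tspan4, Wnt2 and Znrf3. A few genes are not reported here. Figures and promoter searches used Python 3.11.15, pandas 2.3.3, numpy 2.4.6 and matplotlib 3.10.9.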

Additional observations from a re-analysis of the deposited data

Results flagged for a closer look

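Among the named genes, 28 groups of 5 libraries held a library whose gap to the nearest other, over the range of the group on the log2 scale, passed Dixon's 95% critical value. Chance flags about 1 in 20 groups, and each named gene was tested in the Ctrl and the Alc UA group. The 28 flags were not set against the number expected by chance over all these groups. A part of the named genes was also chosen after their values were seen. The flags below are therefore a description, and no single flag shows that a library differs. Ctrl 1 was set apart by Alas1 at 108 (189), Alb at 13754 (26200.3), Cyp2b9 at 5.06 (0.113), Cyp8b1 at 262 (461), Mat1a at 892 (1399.5), Ppp1r3g at 0.964 (2.76), Saa1 at 410.1 (24.5) and Xbp1 at 27.4 (44.1), each with the nearest other library in parentheses. Alc UA 3 was set apart by Adgre1 at 25.8 (4.76), C8g at 247 (194), Cd5l at 213 (59.4), Csf1r at 26 (13.8), Etfb at 439 (361), Hba-a1 at 338 (156) and Hspd1 at 235 (298). Alc UA 2 was set apart by Clec4f at 20.5 (31.9), Gldc at 11.8 (19.5), Insig2 at 140.0 (75.4) and Tef at 47.6 (62.2). Ctrl 5 was set apart by Jchain at 2.01 (5.27), Nr1d2 at 11.9 (7.19) and Srebf1 at 45.6 (7.47). Alc UA 1 was set apart by Mat1a at 3200.1 (2061) and Tap2 at 18.8 (14). Alc UA 4 was set apart by Hmgcs1 at 14.8 (18.3). Alc UA 5 was set apart by Nmnat3 at 4.3 (5.46). Ctrl 2 was set apart by Trib3 at 2.25 (3.43). Ctrl 4 was set apart by Dgat1 at 17.7 (14.1). In a test of the difference between Alc UA and Alc, Mup5 differed by 2.35 on the log2 scale. It was the 1 gene called there, and it was higher in 5 of 5 Alc UA libraries than in any Alc library.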

How the results depend on the processing

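For Alc UA against Ctrl, genes higher, the count of 2403 fell to 1145 on the deposited FPKM without scaling and to 1298 with equal FPKM sums, where 3481 and 2515 were lower. By construction these settings move all genes of a library together. Over the fits that left out 1 library each, 2028 to 2621 genes were higher, 1951 to 2570 lower and 2218 to 2734 at the control level. Of the genes called after scaling, none reversed its direction as a called gene in any of these settings. Without Ctrl 1 and Ctrl 5 there were 2324 higher and 2230 lower, and with library weights 2762 and 2752. Requiring a fold over 1 on the log2 scale left 173 higher and 197 lower, by construction. For Alc UA against Ctrl, genes at the control level, the count of 2483 became 1072 with the interval within 0.3, 4214 with a mean of at least 1 FPKM and 881 with a mean of at least 20 FPKM. For Alc UA against Alc, genes higher, the count of 1 became 2 with equal FPKM sums and 4 with library weights, and 1 to 2 over the fits that left out 1 library, being 2 without Ctrl 3, without Alc UA 4 or without Alc 1. For Alc UA against Alc, genes lower, the count of 0 became 1 with library weights. The cause was not tested. The replicate numbers do not pair the libraries, since the correlations of same-numbered deviations ran from -0.20 to 0.31 and 1 of 5 libraries correlated best with its own number, and the fit with a replicate block called 2299 higher and 2244 lower. Depth per gene is unknown in FPKM values, so the precision of weak genes could not be set by counting.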

Other observations

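Of 18 tested retinol genes 5 were lower, 6 lay at the control level (3 without Ctrl 1 and Ctrl 5) and 1 was higher (Rdh16). Dhrs3, which turns retinal back into retinol, held 73.9, 77.8, 68.3, 78.9 and 78 in Ctrl and 52.1, 38.8, 49.7, 52.7 and 57.5 in Alc UA (-0.59 ± 0.10, adjusted p = 0.00051), and Cyp26b1, which clears retinoic acid, went from 5.06 ± 2.54 to 0.93 ± 0.461 (-1.54 ± 0.30, adjusted p = 0.00096). Rdh16, a retinol dehydrogenase, rose from 43.9 ± 12.1 to 91.8 ± 12.9 (1.07 ± 0.18, adjusted p = 0.00047), while Rdh7 lay at the control level (0.06, 95% interval -0.19 to 0.31). Of 10 acyl-CoA thioesterase genes, which release fatty acids from coenzyme A, 4 were higher and 1 was lower (Acot8, whose call ended without Ctrl 2, 4 or 5 or Alc UA 1, 2 or 3 or both Ctrl 1 and Ctrl 5, with no filter, adjusted p 0.051 to 0.1). Acot3, a peroxisomal member, held 20.2, 41, 23.1, 19.6 and 16.9 in Ctrl and 114, 38.5, 39.6, 142 and 65.5 in Alc UA (1.56 ± 0.35, adjusted p = 0.0025), and Acot4 went from 23.5 ± 6.25 to 51.8 ± 16.6 (1.08 ± 0.25, adjusted p = 0.0031).

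In the growth hormone axis 3 of 17 tested genes were higher, 1 was lower (Socs3, whose call ended without Ctrl 4 or 5 or Alc UA 2 or 4 or both Ctrl 1 and Ctrl 5, with no filter, adjusted p 0.051 to 0.083) and 11 were undetermined. Igf1, the growth factor that the liver releases into blood, lay at the control level (75.8, 64.8, 68.9, 89.6 and 95.2 in Ctrl, 85.5, 74.5, 87.2, 91.6 and 75.3 in Alc UA, 0.08, 95% interval -0.14 to 0.30), and Igfbp4, which binds it, rose from 565 ± 49.6 to 796 ± 56.6 (0.49 ± 0.095, adjusted p = 0.00092). Of 6 tested targets of the aryl hydrocarbon receptor 3 were higher, among them Xdh, xanthine dehydrogenase (25.8 ± 3.57 to 40.8 ± 7.61, 0.64 ± 0.13, adjusted p = 0.0014). Of 18 hormones secreted by the liver 2 were higher, 3 lower and 4 at the control level.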
